A study of Homo sapiens with 90 samples.

Results

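Thawed differentiated HepaRG cells were compared with fresh differentiated HepaRG cells at day 32, both cultured without DMSO (dimethyl sulphoxide, the solvent used to induce and hold hepatocyte differentiation in this line). HepaRG is an established human liver progenitor line that gives hepatocyte-like and biliary-like cells. The comparison holds 12 of the 90 libraries of the series, chosen by title: thawed or fresh differentiated, no DMSO, day 32. They form 4 groups of 3 libraries: fresh parental (genotype wt), thawed parental, fresh CYP2D6-transduced and thawed CYP2D6-transduced cells. CYP2D6 is a drug-metabolising cytochrome P450, and the series title names a lentivirus as its carrier; the promoter that drives it, and whether the line is 1 clone, are not given in the sources used here. Per the protocols, cells of all 4 groups were kept in William's E medium with serum, insulin and hydrocortisone and had been differentiated with 1.7% DMSO, so that the groups without DMSO had been exposed to it earlier. The replicates are lettered a to c. Nothing says that the letters are separate cultures, so that p-values measure the spread between these libraries, which may be technical. No culture run or batch is named for the groups, and a run of culture and the cell status cannot be told apart.

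Freezing and thawing exposes hepatocytes to osmotic and oxidative stress and to the loss of cell contacts, and cells that are plated afterwards have to attach, spread and rebuild their matrix. NF-kB is a transcription factor held in the cytoplasm by inhibitors such as the NFKBIA product; inflammatory signals and cell stress release it, and it then drives chemokine and adhesion genes. TGF-beta signals through SMAD proteins to matrix and growth-control genes, and is known in liver for driving fibrosis and loss of hepatocyte identity. Ribosomal protein and respiratory chain genes are housekeeping sets whose messages are short and abundant.

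Libraries of total RNA were counted per gene, and held 1247009 to 2614556 counts, with a median of 1973503. Levels are in CPM, counts scaled to the size of each library with TMM factors. Hepatocyte markers were abundant in every library: the 7 markers summed to 34690 to 49376 CPM in fresh and 31721 to 45819 CPM in thawed libraries. Of the 6 biliary or progenitor markers EPCAM had no count, and their sum was 388 to 447 CPM in fresh and 441 to 528 CPM in thawed libraries. The 8 mesenchymal or stellate markers summed to 59.3 to 91.4 and 74.3 to 108 CPM, the 5 endothelial markers to 6.92 to 17.4 and 8.37 to 11.8 CPM, and the 8 macrophage or leukocyte markers to 70.8 to 91.0 and 75.0 to 111 CPM, fresh and thawed in turn. Among the last, MARCO had no count and PTPRC stayed under 1 CPM. CYP2D6, which checks the genotype label, was at 0, 3.78 and 3.74 CPM in fresh parental and 0, 1.05 and 0 CPM in thawed parental libraries, and at 8.81, 12.8 and 9.55 CPM in fresh transduced and 6.01, 4.83 and 6.80 CPM in thawed transduced libraries. Every transduced library lay above every parental one. Fresh transduced replicate a stood apart from b and c on the first axis of a multidimensional scaling of the 12 libraries (0.38 against -0.70 and -0.97), and thawed parental replicate a did so as well (-0.44 against 0.29 and 0.42).

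Thawed and fresh cells differed in 500 of 9867 genes tested (5.07%), at an adjusted p under 0.05 in edgeR's quasi-likelihood test with genotype as a covariate. Thawed cells were higher in 347 genes (3.52%) and lower in 153 (1.55%). Most changes were small: 7 of the genes that rose and 47 of those that fell passed 2-fold. Of the lists described below, the NF-kB and TGF-beta lists held 6 and 5 falls, and the ribosomal protein and respiratory chain lists 37 and 22 rises. All 500 had the same sign in both genotypes, but they were selected by a test over both genotypes together, which favours a shared sign. The median log2 over all genes tested was -0.03. Without overlap between fresh and thawed libraries inside either genotype, 329 genes were higher (3.33%) and 130 lower (1.32%). In bulk RNA, fewer cells of a type and less RNA per cell cannot be told apart. The count depended on which libraries entered the fit. When all 90 libraries of the series shared 1 estimate of the spread, 110 genes passed, 49 higher and 61 lower, of which 89 were among the 500; 3 of those 90 libraries were nearly empty, with 212 to 10137 counts. Of the genes described below, S100A9, AURKB, CCNB1, PCMTD1, H4C15, ZNF557, APOB, ITIH2, APOA2, C3, CLU, CYP3A4, CYP2C8, GSTA1, SLC22A7, FDPS, INSIG1, G0S2, GLUL, AASS, ASL, JUND, ID1, CAV1, FN1, TIMP1, TK1, CKS1B, NPM1, HSPA8, SEC61B, HSPA5, SQSTM1, ENO1, ALDOA, GAPDH, MT2A, MT1A, NDUFB9, COX5A, COX5B, ATP5F1B, RPS12, RPS28 and RPLP0 did not pass in that fit. Without thawed parental replicate a, 760 genes passed, 406 higher and 354 lower.

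**Figure D1:**
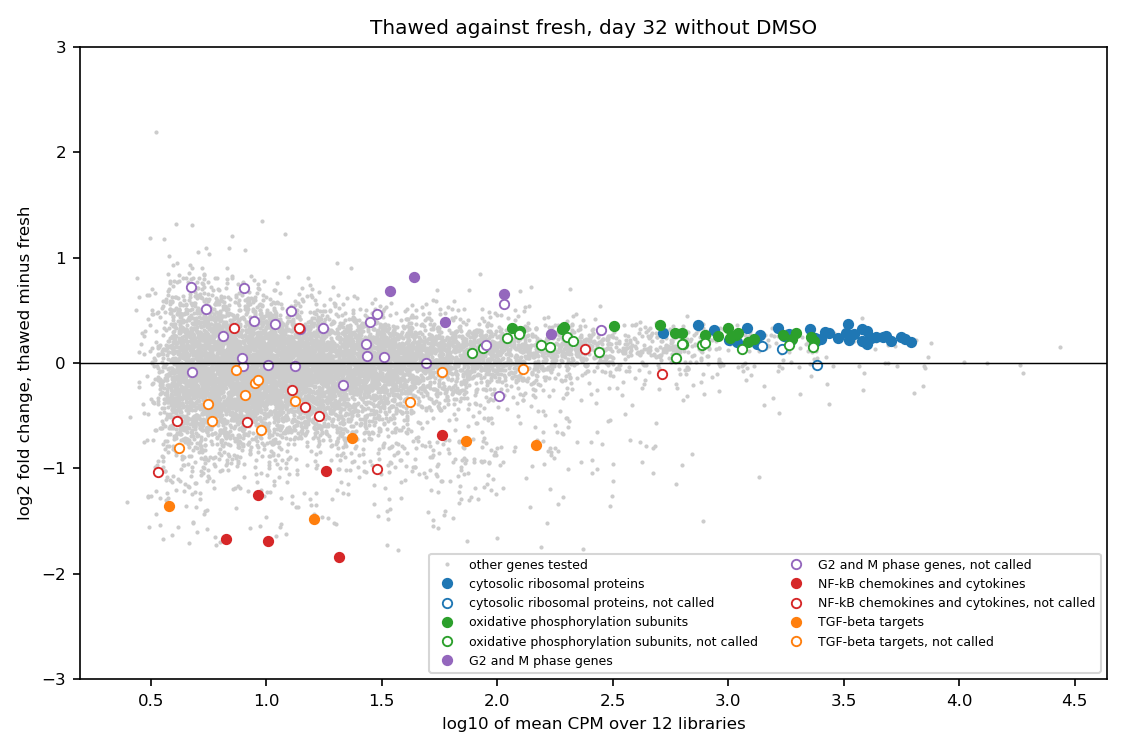
Log2 fold change, thawed minus fresh (vertical axis), against the log10 of the mean CPM over the 12 libraries (horizontal axis) for the 9867 genes tested; coloured points are members of 5 gene lists, filled where called. The ribosomal protein (blue) and respiratory chain (green) members lie in a narrow band just above 0, while the called NF-kB (red) and TGF-beta (orange) members lie below 0.

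Several chemokine and adhesion genes driven by NF-kB were lower in thawed cells. Of 17 tested members of this list 6 fell and 0 rose, against 1.55% of all genes that fell, and the median log2 of the list was -0.56. CCL2, the monocyte chemoattractant (chr17:34255285-34257203 on GRCh38), had the largest fall among the called genes named here. CCL2 was at 21.0, 22.3 and 30.7 CPM in the fresh parental libraries and 37.7, 35.1 and 46.9 in the fresh transduced ones, against 9.80, 3.66 and 4.25 in the thawed parental and 12.6, 9.66 and 14.2 in the thawed transduced libraries. Every thawed library lay below every fresh one. The gene was 3.59-fold lower in thawed cells (log2 -1.84 ± 0.21 SE, adjusted p = 1.4e-06). CXCL8 was at 12.04, 15.5 and 9.36 CPM in the fresh parental libraries and 16.1, 29.2 and 11.1 in the fresh transduced ones, against 5.54, 2.09 and 6.91 in the thawed parental and 3.28, 3.76 and 6.80 in the thawed transduced libraries. CXCL8, the neutrophil chemokine interleukin 8 (chr4:73740569-73743716), was 3.23-fold lower (log2 -1.69 ± 0.30 SE, adjusted p = 0.000473), again with no overlap; the highest value came from 1 fresh transduced library.

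The inhibitor and the adhesion molecule of the pathway moved the same way. NFKBIA was at 56.2, 67.3 and 73.7 CPM in the fresh parental libraries and 73.9, 83.5 and 73.2 in the fresh transduced ones, against 48.2, 39.2 and 50.0 in the thawed parental and 42.6, 46.7 and 38.3 in the thawed transduced libraries. NFKBIA, which encodes the inhibitor IkB-alpha and is itself an NF-kB target, was 1.61-fold lower (log2 -0.68 ± 0.12 SE, adjusted p = 0.000391). ICAM1 was at 17.4, 23.0 and 22.5 CPM in the fresh parental libraries and 28.9, 24.7 and 30.2 in the fresh transduced ones, against 7.67, 15.2 and 11.2 in the thawed parental and 12.6, 15.6 and 9.28 in the thawed transduced libraries. ICAM1, the leukocyte adhesion receptor, was 2.03-fold lower (log2 -1.02 ± 0.20 SE, adjusted p = 0.00109), with no overlap of the groups. The remaining called members were CXCL1 (log2 -1.25, adjusted p = 0.00447) and CCL20 (log2 -1.67, adjusted p = 0.00119), both chemokines, which were picked out after their values were seen. The 11 other members did not pass: CXCL2 was at a log2 of 0.33, CXCL10 at -0.25 and BIRC3 at 0.13. DESeq2 gave an adjusted p for only 3 of the 6, since its filter on low counts left CXCL8, CXCL1 and CCL20 without one. TNFRSF11B, the decoy receptor osteoprotegerin, lies outside the list and fell as well. TNFRSF11B was at 29.9, 38.5 and 44.9 CPM in the fresh parental libraries and 38.2, 39.0 and 27.8 in the fresh transduced ones, against 22.2, 15.2 and 23.9 in the thawed parental and 13.1, 17.7 and 14.8 in the thawed transduced libraries. It was 2.05-fold lower (log2 -1.04 ± 0.17 SE, adjusted p = 0.000211).

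The 250 bases upstream of each start site were searched for GGAANTTCC, a form of the NF-kB site that is its own reverse complement. RefSeq promoters (GRCh38.p14) were found for 14 of the 17 tested members, and 8 of the 14 held the motif, against 0.826% of all 35116 promoters. The list was made of genes known to be driven by NF-kB, so this share follows from the list and does not bear on the thawed effect. A gene was counted if any of its promoters held the motif, whereas the background counts single promoters. Of the called members, 4 of the 5 with a promoter held it; CCL20 did not, and CCL2 had no entry. Members that were not called held it too: CXCL2, CXCL10, NFKBIZ and NFKB1. The motif is in capitals in the stretches below, shown for the 4 called genes, each 5′ to 3′ on the gene's own strand.
CXCL8, chr4:73740433-73740531, plus strand: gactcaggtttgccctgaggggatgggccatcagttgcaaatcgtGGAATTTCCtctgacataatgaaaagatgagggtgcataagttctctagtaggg
CXCL1, chr4:73869270-73869368, plus strand: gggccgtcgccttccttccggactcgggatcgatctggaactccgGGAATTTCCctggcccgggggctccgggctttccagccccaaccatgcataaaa
NFKBIA, chr14:35404777-35404875, minus strand: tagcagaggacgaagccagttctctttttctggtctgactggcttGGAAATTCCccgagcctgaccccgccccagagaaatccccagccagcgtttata
ICAM1, chr19:10270889-10270987, plus strand: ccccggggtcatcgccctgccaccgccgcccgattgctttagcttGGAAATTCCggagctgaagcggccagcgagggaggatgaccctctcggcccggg
The match starts 91, 78, 81 and 186 bases upstream of the start site in the order shown. A match is a stretch of letters and not a measured site of binding.

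**Figure D2:**
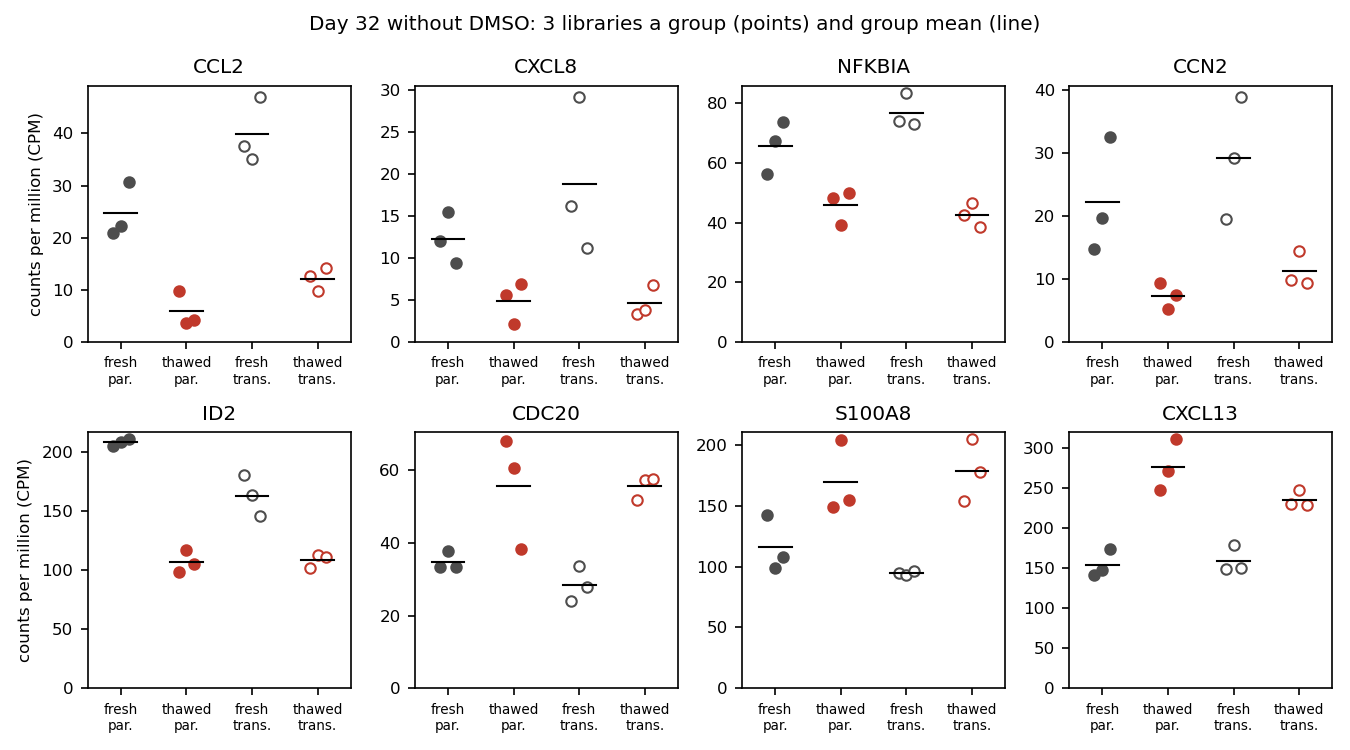
CPM (vertical axis, from 0) of 8 genes in each of the 12 libraries: fresh in grey, thawed in red, parental filled and transduced open, with the mean of 3 libraries as a line. CCL2, CXCL8, NFKBIA, CCN2 and ID2 are lower, and CDC20, S100A8 and CXCL13 higher, in thawed cells of both genotypes.

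Some genes of the TGF-beta target list were lower in thawed cells. Of 17 tested, 5 fell and 0 rose, against 1.55% of all genes that fell. The log2 was below 0 in 17 of 17 (median -0.39), and in 5333 of all 9867 genes tested. The list counts together genes that TGF-beta induces and genes that it can repress, such as ID2. These falls therefore give no direction of TGF-beta signalling, which was not tested. ID2 was at 205, 209 and 211 CPM in the fresh parental libraries and 181, 164 and 146 in the fresh transduced ones, against 98.9, 117 and 105 in the thawed parental and 102, 113 and 111 in the thawed transduced libraries. ID2, an inhibitor of differentiation factors that is induced by BMP and repressed by TGF-beta in many epithelia, lay at chr2:8682056-8684461 and was 1.72-fold lower (log2 -0.78 ± 0.09 SE, adjusted p = 1.4e-06). The groups did not overlap, and fresh parental libraries were the highest. SKIL, a SMAD co-repressor, was 2.79-fold lower (log2 -1.48, adjusted p = 0.00725); its thawed parental replicate a (17.5 CPM) lay among the fresh libraries. ID1 was at a log2 of -0.71 (adjusted p = 0.0107) and PMEPA1, chosen after its values were seen, at -1.36 (adjusted p = 0.0341). Without fresh parental replicate c, 3 members passed and ID1 did not (adjusted p = 0.0607); 3 passed in the fit of all 90 libraries.

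Most matrix and adhesion genes did not pass, and most had a log2 below 0. Of 25 matrix proteins tested, 3 fell and 1 rose (median log2 -0.38, 21 below 0), against 1.55% of all genes that fell and 3.52% that rose. Of 18 matrix proteases and inhibitors 3 fell and 0 rose (median -0.33, 14 below 0). Of 24 integrin and focal adhesion genes 2 rose and 0 fell, with a median of -0.19 and 20 below 0, and of 25 junction and polarity genes 1 fell and 0 rose (median -0.24, 22 below 0). COL12A1, a fibril-associated collagen, was 3.04-fold lower (log2 -1.61 ± 0.36 SE, adjusted p = 0.00508), from 7.54 ± 1.27 CPM in fresh and 2.50 ± 1.22 CPM in thawed libraries (SD, n = 6 each). FN1, fibronectin, was 1.32-fold lower (log2 -0.40, adjusted p = 0.0229), a call lost without fresh transduced replicate b (0.0948) or c (0.0644), fresh parental b (0.0503) or thawed transduced c (0.0543), or with the length trend removed (0.0781, at a log2 of -0.28), as adjusted p. TIMP1, the metalloproteinase inhibitor, was 1.20-fold lower (log2 -0.26, adjusted p = 0.000938). CCN2, connective tissue growth factor and the 1 called of 18 YAP and TEAD targets, was 2.76-fold lower. CCN2 was at 14.7, 19.6 and 32.6 CPM in the fresh parental libraries and 19.6, 29.2 and 39.0 in the fresh transduced ones, against 9.38, 5.23 and 7.44 in the thawed parental and 9.84, 14.5 and 9.28 in the thawed transduced libraries. Its groups did not overlap (log2 -1.46 ± 0.23 SE, adjusted p = 0.000158). DCN, the small proteoglycan decorin, rose 1.52-fold (log2 0.60, adjusted p = 0.00322), and PCOLCE, which enhances procollagen processing, rose 1.62-fold (log2 0.69, adjusted p = 0.00471). DCN is also 1 of the 8 mesenchymal markers; of the others, LUM had a mean of 22.4 CPM in fresh and 19.6 CPM in thawed libraries, COL1A1 of 2.66 and 0.892 and COL3A1 of 2.00 and 1.23, PDGFRB of 2.45 and 3.47, and PDGFRA, THY1 and DES stayed near 0. The part of mesenchymal cells in the DCN result was not tested. CDH1, the epithelial cadherin, was 3.32-fold lower at low counts: 9.46 ± 4.30 CPM in fresh and 2.68 ± 0.683 CPM in thawed libraries (log2 -1.73, adjusted p = 0.00232). The caveolins CAV1 and CAV2, coat proteins of membrane pits and the 2 called members of the focal adhesion list, rose (log2 0.33, adjusted p = 0.00336, and log2 0.41, adjusted p = 0.00281), as did KRT19, a keratin of biliary cells (227 ± 18.5 CPM in fresh and 303 ± 40.0 CPM in thawed libraries; log2 0.42, adjusted p = 0.00109). The summed biliary markers spanned 388 to 447 CPM in fresh and 441 to 528 CPM in thawed libraries, and KRT19 made up the increase. The means of the others were 3.69 CPM in fresh and 2.85 CPM in thawed libraries for KRT7, 5.12 and 2.31 for SOX9, 142 and 129 for CD24 and 43.3 and 45.9 for SPP1, none of them called, and EPCAM was at 0. Of the longer list of biliary and progenitor markers 1 of 11 tested rose and 0 fell, with a median log2 of -0.14 and 7 members below 0.

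Ribosomal protein genes were higher in thawed cells, each by a little. Of the 40 listed, 37 rose and 0 fell, against 3.52% of all genes that rose, and their median log2 was 0.24. RPS12 was at 2598, 2975 and 2837 CPM in the fresh parental libraries and 3033, 2792 and 3038 in the fresh transduced ones, against 3567, 3877 and 3479 in the thawed parental and 3694, 3937 and 3821 in the thawed transduced libraries. RPS12, a small-subunit protein (chr6:132814569-132817564), was 1.30-fold higher (log2 0.37 ± 0.05 SE, adjusted p = 3.8e-06), with no overlap between fresh and thawed libraries. RPLP0, of the ribosomal stalk, was 1.25-fold higher (log2 0.32, adjusted p = 7.1e-05), RPSA 1.29-fold higher (log2 0.36, adjusted p = 0.000105) and RPS28 1.23-fold higher (log2 0.30, adjusted p = 7.1e-05). RPL4 and RPL27 did not pass. Over all cytosolic ribosomal protein symbols, 72 of 82 rose and 0 fell. The listed genes took 10.2 to 11.3% of the counts of fresh libraries and 11.4 to 13.5% of those of thawed libraries. These calls rest on the spread among the 12 libraries: in the fit of all 90 libraries 1 of the 40 passed, RPSA with an adjusted p of 0.0453, while RPS12 had 0.167 at a log2 of 0.41. Ribosomal protein genes have many processed copies, and reads that match several copies may be split or dropped by counting, so single members are uncertain.

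Nuclear genes for the respiratory chain and ATP synthase moved alike. Of 38 tested, 22 rose and 0 fell, and all 38 had a log2 above 0, with a median of 0.24. COX5A was at 445, 472 and 417 CPM in the fresh parental libraries and 451, 454 and 424 in the fresh transduced ones, against 607, 571 and 572 in the thawed parental and 547, 559 and 565 in the thawed transduced libraries. COX5A, a subunit of cytochrome c oxidase, was 1.28-fold higher (log2 0.36 ± 0.06 SE, adjusted p = 0.000211), and its groups did not overlap. NDUFB9 of complex I was 1.26-fold higher (log2 0.34, adjusted p = 0.000158), COX5B 1.22-fold higher (log2 0.29, adjusted p = 0.000374) and ATP5F1B, the catalytic ATP synthase subunit, 1.22-fold higher (log2 0.28, adjusted p = 0.000571). The list took 2.72 to 3.11% of counts in fresh and 3.17 to 3.66% in thawed libraries. None of the 38 passed in the fit of all 90 libraries. MTFP1, a protein of mitochondrial fission, rose 1.51-fold (log2 0.59, adjusted p = 0.00232). Against 3.52% of all genes, 8 of 18 Sm and LSm splicing proteins and 6 of 22 small nucleolar RNA host genes rose, with 0 falls in each; these sets were picked after the values were seen. Mitochondrial ribosomal proteins lay nearer that share, with 5 of 74. NPM1, the nucleolar phosphoprotein, was 1.26-fold higher (log2 0.33, adjusted p = 0.000255).

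Transcript length, taken for each gene as the median over all its GENCODE transcripts, moved with these shifts. Genes that rose had a median transcript length of 754 bases and genes that fell one of 1163 bases, against 959 for all genes tested with a length. Of 10 classes of transcript length with like numbers of genes, the longest had 4 rises and 20 falls and a median log2 of -0.17; the shortest had 73 rises and 15 falls and a median of -0.0044. Genes whose median length was under 1000 bases took 70.1 to 72.8% of the counts of fresh and 72.0 to 74.1% of those of thawed libraries. With the length trend removed in each library, a choice made after seeing the data, 547 genes passed, 470 of them among the 500. NEAT1, a long nuclear RNA that scaffolds paraspeckles (chr11:65422798-65445540), had the smallest p of all genes. NEAT1 was at 696, 633 and 604 CPM in the fresh parental libraries and 614, 595 and 512 in the fresh transduced ones, against 386, 372 and 372 in the thawed parental and 315, 352 and 321 in the thawed transduced libraries. It was 1.73-fold lower (log2 -0.79 ± 0.06 SE, adjusted p = 6.5e-10), and the thawed libraries all lay far below the fresh ones. MALAT1, its nuclear neighbour, overlapped between the groups (7021 ± 667 CPM in fresh and 5769 ± 999 CPM in thawed libraries; log2 -0.28, adjusted p = 0.176). The part of RNA quality or nuclear RNA content in these differences was not tested.

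**Figure D3:**
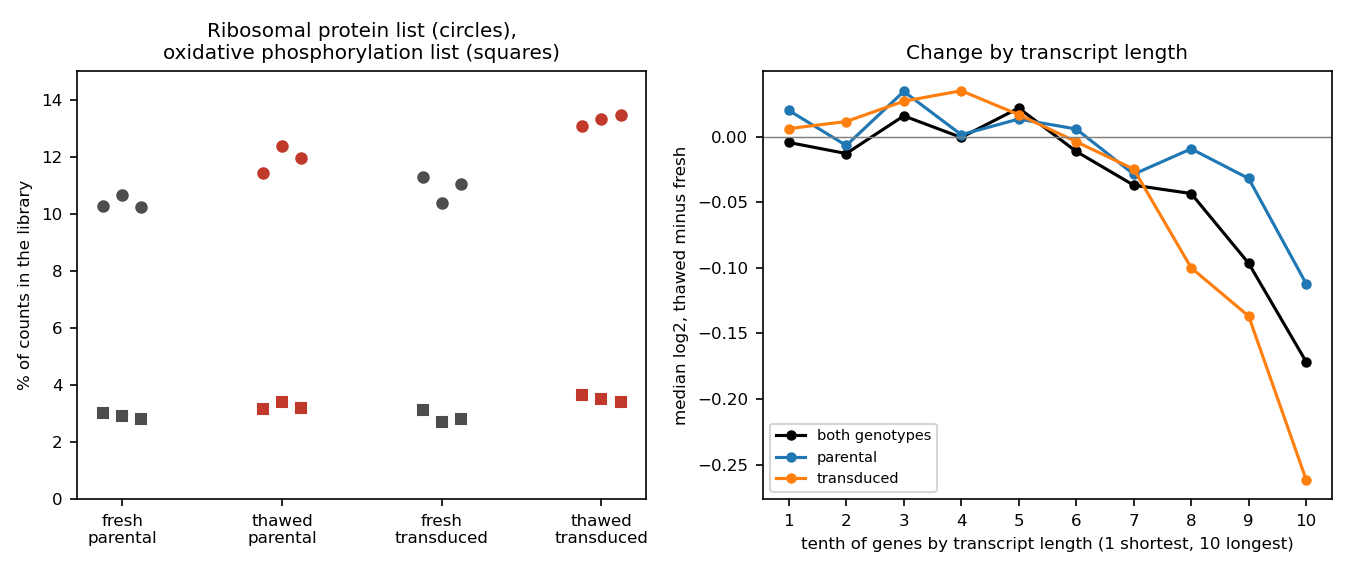
Left, percent of each library's counts in the ribosomal protein list (circles) and the respiratory chain list (squares), by group; thawed libraries (red) lie above fresh ones (grey) for both. Right, median log2 fold change (thawed minus fresh) of genes in 10 classes of transcript length, which falls to -0.17 in the longest.

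A minority of mitotic genes were higher in thawed cells. Of 30 tested G2 and M phase genes 5 rose, against 3.52% of all genes, and 0 fell, with a median log2 of 0.32. CDC20 was at 33.4, 37.8 and 33.3 CPM in the fresh parental libraries and 24.0, 33.6 and 27.8 in the fresh transduced ones, against 68.2, 60.7 and 38.3 in the thawed parental and 51.9, 57.4 and 57.5 in the thawed transduced libraries. CDC20, the activator of the anaphase-promoting complex (chr1:43358981-43363203), was 1.76-fold higher (log2 0.81 ± 0.14 SE, adjusted p = 0.000376), with no overlap. CCNB1 was at 89.6, 89.2 and 82.0 CPM in the fresh parental libraries and 104, 67.2 and 64.4 in the fresh transduced ones, against 119.8, 114 and 129 in the thawed parental and 142, 147 and 136 in the thawed transduced libraries. CCNB1, cyclin B1, was 1.57-fold higher (log2 0.65 ± 0.11 SE, adjusted p = 0.000231). AURKB, the kinase of the chromosomal passenger complex, was 1.60-fold higher (log2 0.68, adjusted p = 0.00669). CKS1B (log2 0.28, adjusted p = 0.0296) and HMGB2 (log2 0.39, adjusted p = 0.0473), the latter picked after its values were seen, completed the 5. MKI67 and TOP2A, common marks of proliferating cells, did not pass, at 25.3 ± 2.97 CPM in fresh and 28.7 ± 3.03 CPM in thawed libraries for MKI67 and a log2 of 0.07 for TOP2A. The list held 3 rises without fresh transduced replicate c, fresh parental replicate b, or thawed transduced replicate b or c, and 1 in the fit of all 90 libraries, where CCNB1 had an adjusted p of 0.0808 and AURKB of 0.138. Of 26 G1 and S phase genes 1 rose, near the 3.52% of all genes: TK1, thymidine kinase (log2 0.41, adjusted p = 0.0392), whose call was lost without any one of 9 libraries, with an adjusted p of up to 0.093. Of 16 replication-dependent histones, a set outside the lists and picked after the values were seen, 4 were lower and 0 higher. Over all genes 1.55% fell. How well the sequencing method counts histone messages was not tested. H4C15 was 2.45-fold lower (log2 -1.29, adjusted p = 0.0206), with a wide spread of 38.7 CPM (SD) around a mean of 117 CPM in fresh cells. It missed the threshold without fresh transduced replicate b (0.0548), thawed transduced a (0.0547) or thawed transduced b (0.0509).

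Promoters of mitotic genes often carry the cell cycle element TTTGAA close to the start. It was found upstream of 13 of the 25 tested members with a RefSeq promoter, on either strand, against 13.3% of all promoters, and upstream of 2 of the 4 called members with an entry. The list was made of known mitotic genes, so this share follows from the list and does not bear on the thawed effect. Genes and promoters were counted as for the NF-kB site. Those 2 are given with the element in capitals.
CDC20, chr1:43358871-43358966, plus strand: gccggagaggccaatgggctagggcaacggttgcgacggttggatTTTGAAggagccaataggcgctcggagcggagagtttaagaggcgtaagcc
CKS1B, chr1:154974606-154974680, plus strand: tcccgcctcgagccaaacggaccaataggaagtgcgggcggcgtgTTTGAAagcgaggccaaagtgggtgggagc
The element starts 65 bases upstream of the CDC20 start and 30 bases upstream of that of CKS1B. No match was found in this window of CCNB1 or AURKB.

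Several secreted and stress-linked genes were among the largest rises. S100A8 was at 143, 98.6 and 108 CPM in the fresh parental libraries and 94.9, 93.4 and 96.3 in the fresh transduced ones, against 149, 204 and 155 in the thawed parental and 154, 205 and 177 in the thawed transduced libraries. S100A8 (chr1:153390032-153422583) and S100A9 form the calcium-binding dimer calprotectin, known from neutrophils and from stressed epithelium. S100A8 was 1.65-fold higher (log2 0.72 ± 0.11 SE, adjusted p = 0.000158). S100A9 was at 52.2, 79.4 and 45.3 CPM in the fresh parental libraries and 50.4, 70.7 and 48.5 in the fresh transduced ones, against 94.6, 105 and 100.5 in the thawed parental and 82.0, 97.2 and 83.5 in the thawed transduced libraries. S100A9 was 1.62-fold higher (log2 0.69 ± 0.12 SE, adjusted p = 0.000526), and neither gene overlapped between the groups. Both are members of the macrophage and leukocyte list, of which 5 genes were tested and these 2 rose, against 3.52% of all genes. CD68 was at a log2 of 0.36 and CD14 at -0.34, both not called, and PTPRC and MARCO were at or near 0. CXCL13 was at 142, 147 and 174 CPM in the fresh parental libraries and 149.7, 179 and 150.4 in the fresh transduced ones, against 248, 272 and 311 in the thawed parental and 230.1, 248 and 229 in the thawed transduced libraries. CXCL13, a B-cell chemokine (chr4:77511753-77611834), was 1.63-fold higher (log2 0.70 ± 0.08 SE, adjusted p = 2.5e-06), opposite in direction to CCL2 and CXCL8. CT45A10, a cancer-testis gene with near-identical copies beside it on chromosome X, rose 1.87-fold (log2 0.90, adjusted p = 0.00148); its level may hold reads of the copies.

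Secretory pathway genes rose in part. Of 26 tested genes for endoplasmic reticulum chaperones and the unfolded protein response 4 rose and 0 fell, with a median log2 of 0.11. Over all genes 3.52% rose. MANF was at 39.7, 44.97 and 48.7 CPM in the fresh parental libraries and 47.0, 45.5 and 33.4 in the fresh transduced ones, against 75.0, 70.6 and 55.3 in the thawed parental and 58.5, 60.1 and 72.4 in the thawed transduced libraries. MANF, a stress-induced factor of the endoplasmic reticulum, was 1.504-fold higher (log2 0.59 ± 0.12 SE, adjusted p = 0.00237). HERPUD1, which works in the degradation of misfolded proteins, was 1.47-fold higher (log2 0.56, adjusted p = 0.00388) with a thawed SD of only 1.31 CPM around 58.8 CPM. SEC61B, of the protein-conducting channel, was at a log2 of 0.36 (adjusted p = 0.00508). HSPA5, the chaperone BiP, was 1.18-fold higher (log2 0.24, adjusted p = 0.0473); it lost its call without any one of 10 libraries, with an adjusted p of up to 0.132. FKBP11, a prolyl isomerase of secretory cells outside the list, rose 1.62-fold (log2 0.70, adjusted p = 0.000327). HSPA8, a cytosolic chaperone, rose 1.25-fold (log2 0.32, adjusted p = 0.000361).

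A minority of detoxifying enzymes rose. Of 32 tested NRF2 antioxidant genes 6 rose and 0 fell (median log2 0.11), of 30 conjugating enzymes 4 rose and 0 fell (median -0.02), and of 30 alcohol and aldehyde enzymes 3 rose and 0 fell (median -0.03). The share over all genes was 3.52% higher. GSTA1 was at 3682, 3428 and 3631 CPM in the fresh parental libraries and 3410.3, 2674 and 2656 in the fresh transduced ones, against 4099, 4498 and 4774 in the thawed parental and 4270.2, 4089.7 and 4325 in the thawed transduced libraries. GSTA1, the main hepatocyte glutathione transferase, was 1.34-fold higher (log2 0.43 ± 0.06 SE, adjusted p = 0.000335); GSTA2, its close homologue with which reads may be shared, was 1.37-fold higher (log2 0.45, adjusted p = 0.00143). ALDH3A1, an aldehyde dehydrogenase of aromatic and lipid aldehydes, rose and was at 112 ± 8.84 CPM in fresh and 163 ± 19.7 CPM in thawed libraries (log2 0.54, adjusted p = 0.000273), without overlap. SQSTM1, the autophagy receptor p62, was 1.29-fold higher (log2 0.37, adjusted p = 0.000415), and AKR1B10, an aldo-keto reductase, 1.31-fold higher (log2 0.39, adjusted p = 0.00434). The best known NRF2 genes did not pass: NQO1 was at a log2 of 0.48, GCLM at 0.28 and HMOX1 at -1.18. The NRF2 list held 3 rises without thawed transduced replicate c or without thawed parental replicate b, and 1 in the fit of all 90 libraries.

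A few glycolytic enzymes rose by small amounts. Of 30 hypoxia and glycolysis genes 4 rose, against 3.52% of all genes, and 0 fell, with a median log2 of 0.02. ENO1, enolase, was 1.22-fold higher (log2 0.29 ± 0.04 SE, adjusted p = 0.000105), without overlap, at 2421 ± 136 CPM in fresh and 2954 ± 213 CPM in thawed libraries. ALDOA, aldolase, was 1.18-fold higher and GAPDH 1.13-fold higher (log2 0.24 and 0.18). ANKRD37, a hypoxia-inducible transcript of low level, was 2.31-fold higher (log2 1.21, adjusted p = 0.0135), while VEGFA was at a log2 of -0.54 and HK2 at -1.24, both not called. In the fit of all 90 libraries 1 of the 30 passed.

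Most genes of hepatocyte function did not pass the test between thawed and fresh cells. Over all genes tested 1.55% fell and 3.52% rose. ALB was at 10475 ± 1142 CPM in fresh and 10545 ± 1544 CPM in thawed libraries, with a log2 of 0.01 (adjusted p = 0.966), and SERPINA1 and TTR did not pass either (log2 -0.09 and -0.22). Of 26 secreted proteins 3 fell and 0 rose, with a median of -0.15: APOB (log2 -0.31, adjusted p = 0.018), ITIH2 (log2 -0.45, adjusted p = 0.0227) and APOA2 (log2 -0.39, adjusted p = 0.0378). With the length trend removed APOB was at a log2 of -0.07 (adjusted p = 0.77), and in DESeq2 APOB (adjusted p = 0.0673) and APOA2 (0.0649) missed the threshold. Between 0 and 3 of them passed when single libraries were left out, 0 without fresh transduced or thawed transduced replicate b. Of 20 complement genes 2 fell and 0 rose. C3 was at 382, 455 and 476 CPM in the fresh parental libraries and 384, 407 and 399 in the fresh transduced ones, against 279, 394 and 332 in the thawed parental and 266, 293 and 238 in the thawed transduced libraries. C3, the central complement component, was 1.40-fold lower (log2 -0.48 ± 0.08 SE, adjusted p = 0.00031), and the groups met only at thawed parental replicate b. CLU, clusterin, was 1.22-fold lower (log2 -0.29, adjusted p = 0.00438). GLUL, glutamine synthetase of perivenous hepatocytes, was 1.23-fold lower (log2 -0.30, adjusted p = 0.00729), a call lost without thawed transduced replicate c (adjusted p = 0.0544). G0S2, an inhibitor of fat breakdown, was 1.54-fold lower (log2 -0.62, adjusted p = 0.00433), and GPAM, which starts glycerolipid synthesis, 1.53-fold lower (log2 -0.62, adjusted p = 0.00843); with the length trend removed, GPAM had an adjusted p of 0.0655. SLC22A7, an organic anion transporter, was 1.79-fold lower (log2 -0.84, adjusted p = 0.0151), a call lost without thawed transduced replicate a (0.0578) or b (0.0513).

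Cytochrome P450 genes, the reason for using this line in drug metabolism, showed 1 rise and 1 fall among 22 tested. The median log2 of the list was -0.24, with 15 members below 0 and 7 above, against a median of -0.03 over all genes. The shares over all genes were 3.52% higher and 1.55% lower. CYP3A4 was at 294, 245 and 268 CPM in the fresh parental libraries and 223, 213 and 167 in the fresh transduced ones, against 122, 178 and 231 in the thawed parental and 155, 142 and 149.7 in the thawed transduced libraries. CYP3A4, the most used human drug-metabolising P450, was 1.44-fold lower (log2 -0.52 ± 0.12 SE, adjusted p = 0.0227). Thawed parental replicates b and c lay within the fresh range. CYP2C8 was 1.27-fold higher (log2 0.34, adjusted p = 0.0312). Both calls were fragile: CYP3A4 lost its call without any one of 7 libraries, with an adjusted p of up to 0.0862, and CYP2C8 without any one of 8, with up to 0.114. CYP2E1 (83.4 ± 29.3 CPM in fresh and 86.1 ± 16.9 CPM in thawed libraries) did not pass, nor did CYP2B6 (log2 -0.60, adjusted p = 0.148) and CYP1A2 (log2 -0.31, adjusted p = 0.711). None of 20 tested liver transcription factors and receptors passed. HNF4A, the master regulator of hepatocyte genes, spread widely. HNF4A was at 505, 241 and 155 CPM in the fresh parental libraries and 64.6, 197 and 398 in the fresh transduced ones, against 193, 112 and 128 in the thawed parental and 56.8, 69.3 and 81.6 in the thawed transduced libraries. The fresh libraries alone spanned most of the range, and the log2 of -1.33 had an adjusted p of 0.145. None of 29 interferon response genes, 33 p53 and apoptosis genes or 12 bile acid synthesis genes passed.

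Few metabolic and metal-handling genes passed. Of 27 tested genes of sterol synthesis and uptake 1 rose and 1 fell (median log2 -0.08): FDPS, which makes farnesyl diphosphate, rose (log2 0.23, adjusted p = 0.017), and INSIG1, which retains the sterol sensor in the endoplasmic reticulum, fell (log2 -0.34, adjusted p = 0.0326). Of 25 genes of the urea cycle and amino acid breakdown 1 rose, ASL, which splits argininosuccinate (log2 0.29, adjusted p = 0.0451). The 2 that fell were GLUL and AASS of lysine breakdown (log2 -0.64, adjusted p = 0.0181). The median log2 of these 25 genes was -0.23, with 18 below 0 and 7 above. AASS was lowest among fresh libraries in fresh transduced replicate a (22.5 CPM), inside the thawed range. Of 11 metallothionein and zinc export genes 2 rose. MT1A was at 42.4, 55.2 and 46.4 CPM in the fresh parental libraries and 56.3, 44.97 and 53.3 in the fresh transduced ones, against 69.5, 62.3 and 58.5 in the thawed parental and 57.9, 90.7 and 77.9 in the thawed transduced libraries. MT1A, a metal-binding protein with near-identical relatives, was 1.39-fold higher (log2 0.48 ± 0.12 SE, adjusted p = 0.0155), and MT2A 1.18-fold higher (log2 0.23, adjusted p = 0.00975), while MT1X of the same family was at a log2 of -0.11 and did not pass. Without single libraries the calls of INSIG1 and ASL were lost in 9 of 12 cases each, that of AASS in 4, that of FDPS in 3 and that of MT1A in 2. With the length trend removed INSIG1 (adjusted p = 0.0635) and AASS (0.0576) missed the threshold. None of 18 glucose, fructose and glycogen enzymes passed. Over all genes tested 3.52% rose and 1.55% fell.

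Other genes with large falls belonged to no list described above. SRSF5 was at 96.3, 93.3 and 103 CPM in the fresh parental libraries and 87.6, 88.0 and 89.9 in the fresh transduced ones, against 49.0, 35.0 and 50.0 in the thawed parental and 41.0, 40.8 and 61.2 in the thawed transduced libraries. SRSF5, a serine and arginine-rich splicing factor, was 2.02-fold lower (log2 -1.01 ± 0.12 SE, adjusted p = 2.0e-06), with the groups far apart. ERRFI1, the feedback inhibitor of the EGF receptor, was 1.73-fold lower (log2 -0.79, adjusted p = 0.000158), and IFNGR1, the interferon gamma receptor, 1.74-fold lower (log2 -0.80, adjusted p = 0.000233). PARP14, an ADP-ribosyltransferase, was 1.81-fold lower (log2 -0.86, adjusted p = 0.00441). PCMTD1 was at 62.4, 35.1 and 37.1 CPM in the fresh parental libraries and 19.6, 59.8 and 54.1 in the fresh transduced ones, against 28.1, 16.2 and 15.4 in the thawed parental and 11.5, 16.6 and 8.66 in the thawed transduced libraries. PCMTD1 was 2.74-fold lower (log2 -1.46, adjusted p = 0.0291), and its lowest fresh value, in fresh transduced replicate a, lay inside the thawed range. ZNF557, a zinc finger gene, was 1.89-fold lower (log2 -0.92, adjusted p = 0.00703). In PCMTD1, ERRFI1, IFNGR1, PARP14 and ZNF557 alike, fresh transduced replicate a was the lowest of the fresh libraries and thawed parental replicate a the highest of the thawed ones. The call of PCMTD1 was lost without any one of 7 libraries, with an adjusted p of up to 0.0792. JUND and FOSL2 were the 2 of 14 immediate-early genes that fell (log2 -0.87 and -1.47), against 1.55% of all genes. Their calls were lost without any 1 of 7 and 9 libraries.

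The genotypes were then separated. Thawed against fresh parental cells gave 64 calls (0.649%), 45 higher (0.456%) and 19 lower (0.193%), and transduced cells gave 355 (3.6%), 239 higher (2.42%) and 116 lower (1.18%); 40 genes were called in both. No gene passed in the test of the difference of the effect between genotypes, in edgeR (547 genes at an unadjusted p under 0.05, 5.54% of those tested) or in DESeq2 (430 genes). Leaving out fresh transduced replicate a, the library that stood apart from its group, moved the transduced count to 1161 and gave 51 genes in the test of the difference; leaving out any of the other 11 gave 0. Leading genes, selected on both lines together, had the same sign in each, which that selection favours. CCL2 was at a log2 of -2.01 in parental and -1.71 in transduced cells, NEAT1 at -0.77 and -0.80, and RPS12 at 0.38 and 0.37. The median log2 of the NF-kB list was -0.43 in parental and -1.01 in transduced cells, and that of the ribosomal protein list 0.21 and 0.28. Without fresh parental replicate a or c, thawed parental replicate b or c, or any thawed transduced library, the parental count fell to between 19 and 33; without fresh transduced replicate b or c, or any thawed transduced library, the transduced count fell to between 86 and 215.

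The thawed effect without DMSO was set against that in cells of the same day kept with DMSO, in a joint fit of 35 libraries that also holds day 30; no library is shared between the conditions, and fresh parental replicate c of day 30 was left out as nearly empty. The effects differed in 47 of 11362 genes (0.414%), 45 with a positive difference (0.396%) and 2 with a negative one. Of the 20 acute-phase genes tested, 10 had a positive difference and 0 a negative one. HP, haptoglobin, was at 9689 ± 1395 CPM in fresh and 4996 ± 687 CPM in thawed cells with DMSO (SD, n = 6 each) and at 18833 ± 3241 CPM in fresh and 18814 ± 3092 CPM in thawed cells without it. Its thawed effect was a log2 of -0.95 with and 0.01 without DMSO, a difference of 0.96 ± 0.13 SE (adjusted p = 0.000419). LBP, which presents bacterial lipopolysaccharide, was at 170.1 ± 29.1 CPM in fresh and 97.8 ± 13.8 CPM in thawed cells with DMSO and 337 ± 52.6 CPM in fresh and 398 ± 36.1 CPM in thawed cells without. The difference of its effects was 1.04 ± 0.13 SE (adjusted p = 3.8e-07). APCS, serum amyloid P (0.87 ± 0.17 SE, adjusted p = 0.014), and HPR, a near copy of HP that may share its reads (0.96 ± 0.13 SE, adjusted p = 0.000248), followed, with MAD2L1, a mitotic checkpoint gene (0.89 ± 0.20 SE, adjusted p = 0.0179). In each of the 4 acute-phase genes thawed cells were lower than fresh with DMSO, and the groups overlapped without it.

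For 6 of the 40 ribosomal protein genes the difference between media passed, all positive, against 0.396% of all genes. In this joint fit the median log2 of the list was 0.27 without DMSO and 0.02 with it, where 0 rose and 1 fell (of all genes, 1.3% rose and 2.57% fell there, 3.87% in all). NEAT1 had a thawed effect of -0.76 without and -0.15 with DMSO (difference -0.61 ± 0.13 SE, adjusted p = 0.014). ID2 and SRSF5 had negative effects in both media, without and with DMSO in turn: -0.75 and -0.96, and -0.98 and -1.07, with SEs of the difference of 0.13 and 0.16; neither difference passed. CCL2 was at -1.83 without and -2.07 with DMSO. Of the NF-kB list, 6 of 19 tested in this fit fell with DMSO (median -0.55). At day 30, 3 of the 19 fell and 1 rose (median -0.31), against 8.33% of all genes that fell and 11.3% that rose on that day. The count of 47 fell to 5 without every replicate b and to 4 without every replicate c, and rose to 77 without every replicate a. In the fit of all 90 libraries HP (adjusted p = 0.474), HPR (0.131) and MAD2L1 (0.474) lost their calls. HP lost its call without b (adjusted p = 0.0903) or c (0.260), HPR without c (0.152), APCS without b (0.547) or c (0.213), and MAD2L1 without a (0.161), b (0.139) or c (0.476), whereas LBP passed in each.

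**Figure D4:**
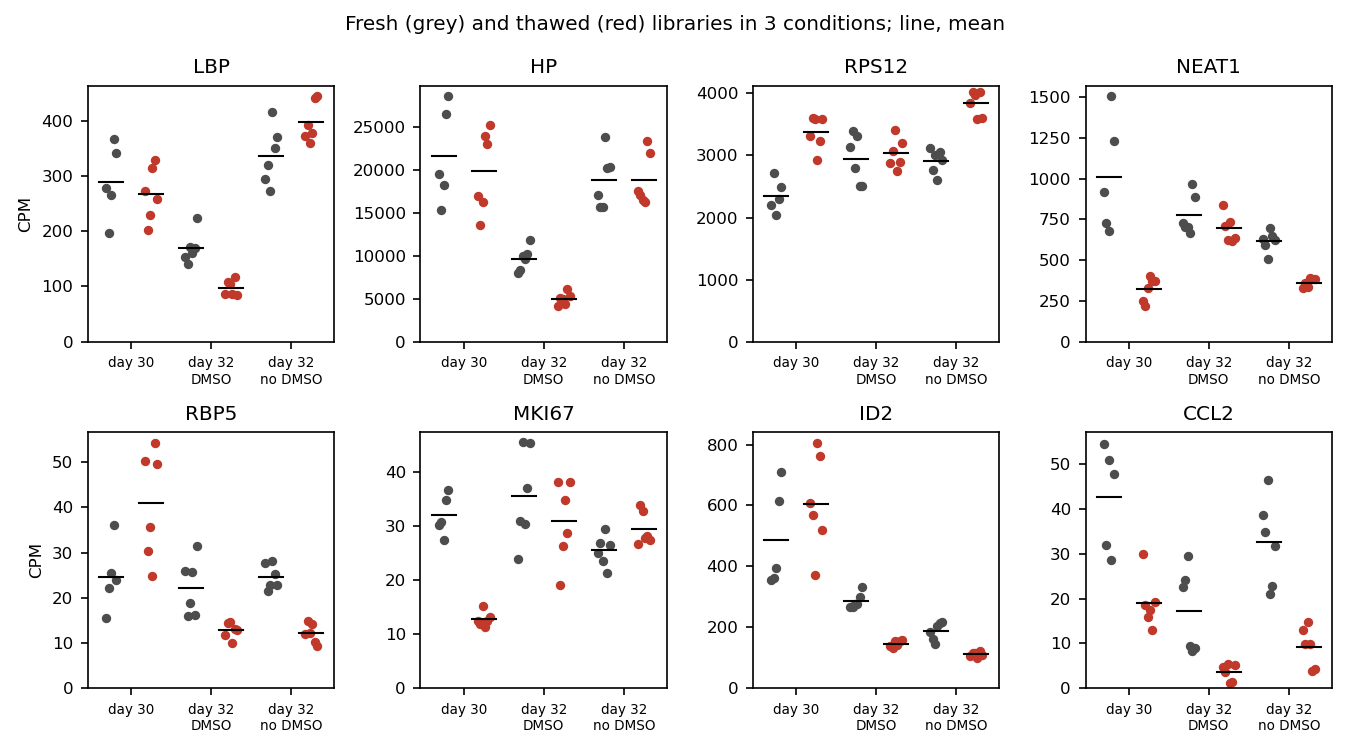
CPM (vertical axis, from 0) of 8 genes in fresh (grey) and thawed (red) libraries at day 30, day 32 with DMSO and day 32 without DMSO, both genotypes together, with the mean as a line; 5 libraries for fresh day 30 and 6 for each other group. LBP and HP separate thawed from fresh with DMSO and overlap without it, whereas ID2 separates at day 32 in both media.

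Set against day 30, 2 days earlier, the thawed effect differed in more genes. At day 30 thawed cells differed from fresh in 2234 of 11362 genes (19.7%), higher in 11.3% and lower in 8.33%, and 528 effects differed between day 30 and day 32 without DMSO (4.65%), 164 with a positive (1.44%) and 364 with a negative difference (3.2%). RBP5, a retinol-binding protein, was at 24.6 ± 7.42 CPM in fresh and 40.9 ± 12.1 CPM in thawed cells at day 30 and at 24.7 ± 2.76 CPM in fresh and 12.1 ± 2.12 CPM in thawed cells at day 32; its effect moved from a log2 of 0.72 to -1.02 (difference -1.74 ± 0.28 SE, adjusted p = 3.2e-05). TCIM, a regulator of Wnt signalling, had an effect of 0.44 at day 30 and -1.52 at day 32, when its mean was 4.78 ± 1.99 CPM in thawed cells (difference -1.96 ± 0.40 SE, adjusted p = 0.00265). JUND changed sign likewise, from 0.78 to -0.83 (difference -1.61 ± 0.36 SE, adjusted p = 0.00983). MKI67, a proliferation marker, was at 32.1 ± 3.68 CPM in fresh and 12.8 ± 1.40 CPM in thawed cells at day 30, where the libraries did not overlap, and at 25.5 ± 2.86 CPM in fresh and 29.5 ± 3.07 CPM in thawed cells at day 32 (difference 1.55 ± 0.26 SE, adjusted p = 3.6e-05). AKAP12, a kinase scaffold, had an effect of -1.40 at day 30 and 0.09 at day 32 (difference 1.496 ± 0.24 SE, adjusted p = 0.000112). Without every replicate b TCIM missed the threshold (adjusted p = 0.0564), and JUND did so without a (0.243) or b (0.235). The count of 528 fell to 251 without every replicate b and to 290 without every replicate c.

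Among gene groups, the ribosomal protein genes rose in thawed cells at day 30 as well, 40 of 40 with a median log2 of 0.51, against 11.3% of all genes. In 18 of them the difference between days passed in the negative direction, against 3.2% of all genes. Respiratory chain genes rose in 25 of 38 at day 30 (median 0.36). For 7 of 27 chaperone and unfolded protein response genes of the endoplasmic reticulum the difference between days passed, all positive, against 1.44% of all genes. In this fit their median log2 was -0.40 at day 30 and 0.13 at day 32 without DMSO. At day 30, 11 were lower and 1 higher, against 8.33% of all genes lower and 11.3% higher. HSPA5 was at 449.7 ± 79.0 CPM in fresh and 299 ± 42.3 CPM in thawed cells at day 30 and 293 ± 28.5 CPM in fresh and 353 ± 30.3 CPM in thawed cells at day 32. ID2 went from a thawed effect of 0.27 to -0.75 (adjusted p of the difference = 3.2e-07), and SRSF5 from 0.12 to -0.98 (adjusted p = 4.3e-06). NEAT1 was lower in thawed cells on both days, with log2 effects of -1.69 and -0.76. CCL2 was lower in thawed cells on both days, with no difference called (-0.65 ± 0.31 SE, adjusted p = 0.249). CXCL8 lay higher in all cells at day 30, at 77.5 to 157 CPM in fresh and 24.5 to 229 CPM in thawed libraries, which overlapped.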

How the data were processed

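RNA was sequenced as BRB-seq, a pooled 3′ tag method. The authors deposited raw counts per gene symbol, labelled "unq", "refseq" and "total" without further explanation. BWA 0.7.4.4 and the builds mm10 and hg38 are named in the submitters' processing notes with no role. The annotation release, strand and counting rule are not given in the sources used here. Near-identical genes (HP and HPR, GSTA1 and GSTA2, metallothioneins, ribosomal protein copies) are therefore uncertain. In R 4.3.3, genes were filtered with filterByExpr, scaled with TMM factors and tested with the quasi-likelihood F test of edgeR 4.0.16 (robust; limma 3.58.1) over 12 libraries with genotype as a covariate, or with group means for effects within a genotype and for differences of effects (35 libraries; libraries with under 0.25 of the median depth were left out). The p-values were adjusted by Benjamini-Hochberg over all genes tested, and a gene was called at an adjusted p under 0.05. DESeq2 1.42.0 served as an alternative. Loci and promoters were from RefSeq GRCh38.p14. The transcript length of a gene was the median over all its GENCODE transcripts, with RefSeq used to match the symbols.

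The genes named were, in each direction, the 10 called genes with the strongest change whose libraries did not overlap within either genotype (mean level 20 CPM or more), up to 4 called members per list by p, up to 5 genes per difference of effects, and CYP2D6; members named outside this are said to be so or are given as uncalled values. Members and lists were chosen with earlier results of these data known. Deviations of same-lettered libraries of different groups correlated at -0.37 to 0.16 (18 correlations, 1 over 0.1). Those of libraries with other letters correlated at -0.15 to 0.24 (36 correlations, 6 over 0.1). Letters were therefore not taken as pairs, although 3 libraries a group are too few to exclude pairing. A few genes that this rule or a list holds are not reported here.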

Additional observations from a re-analysis of the deposited data

Results flagged for a closer look

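In 10 genes the thawed effect without DMSO at day 32 differed from that in another condition, by edgeR's test of the difference itself. Against the culture with DMSO the differences were 1.04 for LBP, 0.96 for HP, 0.96 for HPR, 0.89 for MAD2L1 and 0.87 for APCS on the log2 scale. Against day 30 they were -1.96 for TCIM, -1.74 for RBP5, -1.61 for JUND, 1.55 for MKI67 and 1.496 for AKAP12. These are the 5 called differences of greatest size per contrast among genes at 20 CPM or more. HP and HPR are near copies and count as 1 observation.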

How the results depend on the processing

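The 500 calls became 110 when all 90 libraries were fitted together, and 341 to 760 when single libraries were left out, lowest without thawed transduced replicate a and highest without thawed parental replicate a. The share of higher calls was 69.4%, against 44.5% with all 90 libraries and 53.4% without thawed parental replicate a. DESeq2 called 576, RLE factors gave 523, and no filter on low counts gave 627. For parental cells the 64 calls became 103 with no filter on low counts, 23 with DESeq2, 6 with all 90 libraries, and 19 to 145 without single libraries. For transduced cells the 355 became 579 with no filter, 12 with all 90 libraries, and 86 to 1161 without single libraries; 67.3% were higher, against 49.9% with DESeq2 and 53.4% with no filter. For the difference between genotypes the 0 became 4 with no filter and 0 to 51 without single libraries. For the difference from the culture with DMSO the 47 became 79 with RLE factors, 29 with no filter, 106 with DESeq2, 2 with all 90 libraries, and 4 to 77 without one replicate letter. For the difference from day 30 the 528 became 117 with all 90 libraries and 251 to 354 without one letter. The cause of these changes was not tested.

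With the replicate letter as a block the 6 counts were 430 (424 among the 500), 46, 278, 0, 44 and 517 in the same order; letters carry no pairing in the labels. Factors computed without ribosomal protein and respiratory chain genes gave 510 calls and a fit with the length trend removed 547, both chosen after seeing the data. Of 2141 single-gene values under alternatives, 1802 stayed on their side of the threshold, 339 lost their call and 0 reversed. Of 108 gene results, 36 were kept in every alternative that gave them an adjusted p. In all such alternatives but the fit of 90 libraries, 61 were kept. DESeq2 gave an adjusted p for only 102 of the 108. CXCL8, CDH1, COL12A1 and ANKRD37, counted as kept, had values in 20 of 21 alternatives. Without a genotype term 23 of 98 gene results missed the threshold, among them ITIH2, CLU, CYP3A4, CYP2C8, FDPS, INSIG1, ASL, AKR1B10, JUND, CKS1B, HSPA5, GAPDH and MT2A. For these named genes the adjusted p ran from 0.0558 (CKS1B) to 0.115 (GAPDH), and some of the other results lay outside that range. Depth of 1247009 to 2614556 counts limits genes under about 5 CPM to a few counts per library.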
